A study of Lilium davidii var. unicolor with 6 samples.

Results

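In detached scales of Lilium davidii var. unicolor, the edible lily of Lanzhou, 104 transcripts were at least 8-fold lower in scales given methane-rich water (MRW) than in scales given distilled water, and were still counted there at a low level. They were chosen from a table of 14140 transcript sequences by their own read counts. Each count was scaled to its library's total, as CPM. A chosen transcript had a mean of at least 5 CPM in the control libraries and a ratio of mean MRW to mean control level of at most 0.125, with 0.1 CPM added to both means. Its highest MRW value lay below its lowest control value, and its MRW counts summed to more than 3. All 6 libraries entered this choice. The levels of the 104 transcripts in the 2 groups are therefore a description of what was chosen. A fit over all transcripts is quoted for them further on as a description too, and supports nothing.

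Both groups were scales of the same lily, taken 10 days after cutting, and none carried a genetic change that the labels name. Control scales had been soaked for 3 h in distilled water and then irrigated with it every 3 days (n = 3 libraries). MRW scales had been given 100% MRW in its place (n = 3 libraries). Per the growth protocol a biological replicate held 40 scales, and total RNA of the scale was sequenced in bulk. Fewer cells holding a transcript and less of it per cell cannot be told apart in such samples.

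A lily scale is a fleshy leaf that stores starch. When it is cut from the bulb, cells near its base can divide again and form new bulblets, a process that draws on the stored carbohydrate and is steered by plant hormones. Lilies are multiplied by this route, and methane dissolved in water has been studied as a treatment that affects the formation of new organs on cuttings. The title of the series names bulblet formation and phytohormones as its subject. A transcript's level is set by both its synthesis and its decay, and the counts measure neither by itself.

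The deposited table gives each transcript an identifier of the kind used for full-length PacBio reads and a length in bases. It pairs no identifier with a gene name, so the transcripts are described by length, read support and level, and at most 2 by identifier. Known marker genes of the scale could not be looked up for the same reason. Library totals ran from 20988773 to 28031469 estimated counts and overlapped between the groups. Replicate libraries differed by 8.17 to 27.1 times the chi-square that sampling alone would give, so each was kept as a separate sample.

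Of the 14140 transcripts, 11539 had a mean of at least 5 CPM in control. Among these, 129 met the ratio of 0.125, and 126 of them had groups that did not overlap. Another 22 of the 126 had at most 3 counts in the MRW libraries together and were left out as having no residual level, which left the 104. The same rule turned round, with at least 5 CPM in MRW and an 8-fold rise, found 4 transcripts with more than 3 control counts. MRW lay wholly below control in 15.7% of the 11539 transcripts.

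Reads of the 104 transcripts made up 0.537%, 0.534% and 0.569% of all counts in control replicates 1, 2 and 3. Their share in MRW replicates 1, 2 and 3 was 0.0512%, 0.0442% and 0.0399%. As group means these were 0.547% ± 0.0196 and 0.0451% ± 0.00571 (SD, n = 3 each). They were thus a small part of the RNA in either group, and the groups were far apart because the rule asked for it. The 5 with the most control reads held 21.96% to 24.0% of the counts of the 104 in the control libraries and 25.7% to 31.1% in the MRW libraries.

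The fall had a median of 11.2-fold over the 104 transcripts, on the ratio of mean CPM with 0.1 added. The lowest was 8.003-fold and the highest 247-fold. Falls of 8- to 16-fold made up 79 of the 104, and falls over 16- to 32-fold another 16. The remaining falls were over 32- to 64-fold in 5 transcripts and over 64-fold in 4. Most of the chosen transcripts therefore lay in the class next to the limit that chose them, and they formed the lower edge of a continuous range. Groups of 139 and 98 transcripts had fallen by 4- to 5.66-fold and by 5.66- to 8-fold without overlap.

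**Figure D1:**
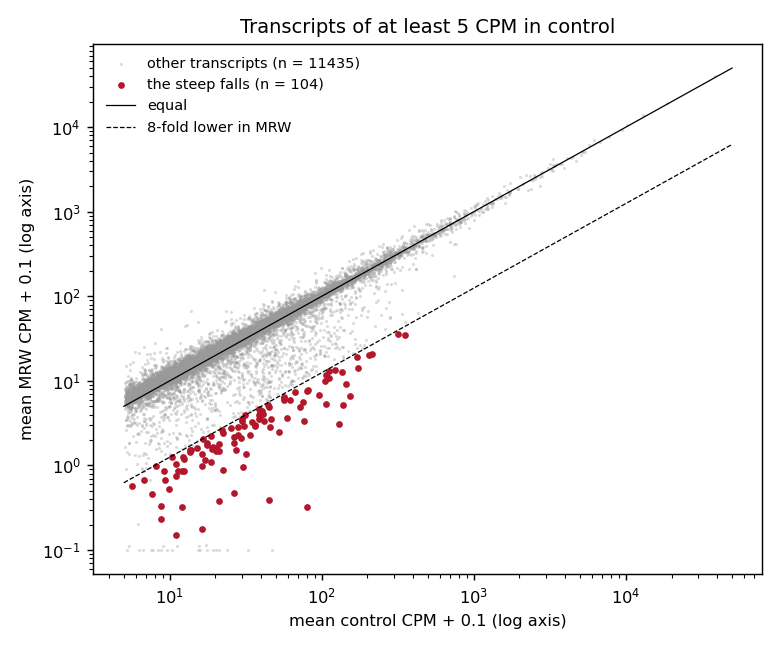
Mean MRW level against mean control level, both in CPM with 0.1 added and on log axes, for the 11539 transcripts with a mean of at least 5 CPM in control. The 104 chosen transcripts (red) lie below the dashed line of an 8-fold fall, and the grey points show no gap between them and the smaller falls.

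Values next to the limits were close to those of the chosen transcripts. Just inside the ratio, falls of 8.003-, 8.03- and 8.29-fold were found in transcripts of 433, 3028 and 553 bases. Just outside it, falls of 7.96-, 7.96- and 7.92-fold were found in transcripts of 772, 464 and 2377 bases. The lowest control levels inside were 5.57, 6.70 and 7.57 CPM, and outside the control limit the nearest were 4.199, 4.02 and 3.89 CPM. The fewest MRW counts inside were 4, 6 and 10, and the most among those left out was 1. The smallest gap between lowest control and highest MRW value inside was from 4.62 to 0.599 CPM. The 2 transcripts with more than 3 MRW counts that failed only on separation had a control library at 0 CPM.

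The groups stood apart in every chosen transcript because the rule asked for separation and for a mean ratio of at most 0.125. The lowest control value was at least 4.13 times the highest MRW value, with a median of 9.12 times, and 102 of the 104 reached 5 times. In the 3 control libraries the 104 transcripts had a median of 30.1, 29.97 and 30.3 CPM, and in the MRW libraries of 2.84, 2.41 and 2.05 CPM. These medians were nearly equal among control libraries and spread more in proportion among MRW libraries.

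**Figure D2:**
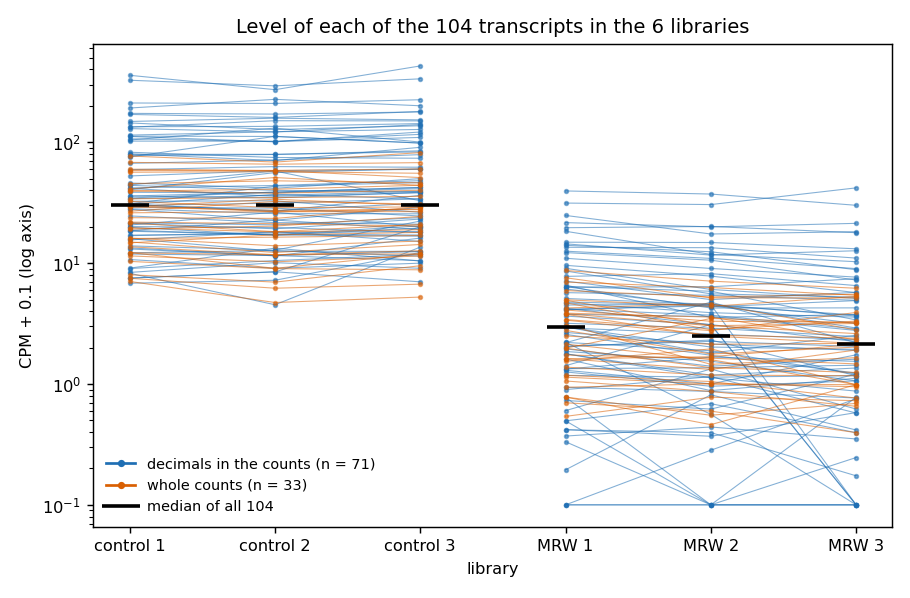
Level of each of the 104 transcripts in each library, in CPM with 0.1 added on a log axis. Lines join the values of 1 transcript within a group, colours mark whole counts (n = 33) and counts with decimals (n = 71), and black bars are medians, which fall from about 30 CPM in control to between 2.05 and 2.84 CPM in MRW before 0.1 is added. Points at the foot of the plot are libraries with 0 counts, all of them MRW libraries and all in transcripts with decimals.

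The transcript with the most control reads was transcript_HQ_Ld3_vu_transcript12324/f2p0/1997, a sequence of 1997 bases whose gene is not named in the table. The f2 of its identifier gives the 2 full-length reads from which it was built. It had 358, 272 and 428 CPM in control replicates 1, 2 and 3 and 31.3, 30.4 and 41.8 CPM in MRW replicates 1, 2 and 3. Control replicate 3 was the highest control library and MRW replicate 3 the highest MRW library for it. Its means of 353 ± 78.0 and 34.5 ± 6.36 CPM (SD, n = 3) gave a 10.2-fold fall. Per length it stood at 203 ± 44.6 FPKM in control and 19.8 ± 3.66 FPKM in MRW (a level per base of transcript, as deposited by the authors), eleventh in control among the 104.

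The transcript with the second most control reads, a sequence of 704 bases built from 8 full-length reads, was the highest of the 104 per length in control. It had 732, 658 and 746 FPKM in the control libraries and 86.9, 83.3 and 66.8 FPKM in the MRW libraries. MRW replicate 3 was the lowest library, and the fall in CPM was 8.92-fold. A sequence of 469 bases with 13 full-length reads came next per length, at 526 ± 44.6 FPKM in control and 59.6 ± 5.44 FPKM in MRW (SD, n = 3). The lowest of the 104 per length was also the longest, a sequence of 5740 bases at 1.98 ± 0.394 FPKM in control.

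The next in order of control reads fell by similar factors. A sequence of 852 bases had 211, 209 and 225 CPM in control and 21.5, 19.9 and 21.2 CPM in MRW. Its replicates lay close together, with a coefficient of variation of 3.89% in control and 4.28% in MRW. A sequence of 2646 bases had 192, 226 and 200 CPM in control and 24.7, 17.3 and 18.1 CPM in MRW, where MRW replicate 1 stood above the other MRW libraries. A sequence of 636 bases had 173, 171 and 178 CPM in control and 14.8, 14.7 and 13.0 CPM in MRW. The falls of these 3 transcripts were 10.3-, 10.2- and 12.2-fold.

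The steepest fall was that of transcript_HQ_Ld3_vu_transcript21602/f2p0/1032, a sequence of 1032 bases that is likewise without a gene name. It had 1828, 1479 and 2543 counts in control replicates 1, 2 and 3, or 80.0, 70.5 and 90.7 CPM. In the MRW libraries it had 0, 0 and 18 counts. Its residual level therefore rested on MRW replicate 3 alone, and the exact 95% Poisson interval of 10.7 to 28.4 around its 18 MRW counts covers counting error only. The fall in mean CPM was 247-fold.

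With 0.1 CPM added to both means, the second steepest fall was in a sequence 5717 bases long. It was counted 1010, 1211 and 916 times in control and 7, 8 and 7 times in MRW. Here the residual counts were even over the MRW libraries, and the fall was 116-fold. The third, 1362 bases long, went from control counts of 315, 266 and 622 to MRW counts of 6, 0 and 0, and this 92.0-fold fall rests on those 6 counts. The longest sequence had 206, 277 and 289 counts in control and 0, 0 and 4 in MRW. Only 1 of these 4 steepest falls had counts in every MRW library. Without the added 0.1 CPM, mean MRW was 0.641% of mean control in the second steepest fall. It was 0.478% in the third and 0.450% in the longest, so the order below the steepest depends on the added value.

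In 10 of the 104 transcripts at least 1 MRW library had 0 counts, and in 5 of these 10 a pair of MRW libraries did. The 10 had a median fall of 37.3-fold, and 8 of them fell over 16-fold. Their counts carried decimals in all 10. The highest value in an MRW library beside a 0 in another was 4.43 CPM. For most transcripts the residual was well counted. A total of 87 of the 104 had at least 10 counts in each MRW library, and the summed MRW counts had a median of 172.5 and a range of 4 to 2624.

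An uneven residual was seen in a transcript of 1946 bases, with control counts of 362, 261 and 348 and MRW counts of 33, 67 and 0. MRW replicate 2 reached 22.2% of its control mean and MRW replicate 3 had none. Its fall was 8.87-fold, and it was 1 of 2 among the 104 that DESeq2 did not call lower.

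All 104 transcripts were called lower in MRW by edgeR's quasi-likelihood test (Benjamini-Hochberg adjusted over 13331 tested transcripts), which called 11.9% of tested transcripts lower. Since the rule picked the 104 on this same contrast, the count is given for completeness and nothing is read from it. Their fitted log2 fold changes had a median of -3.69 and ran from -8.44 to -3.13, beside a median of 0.02 over all tested transcripts. For the transcript with the most control reads the fitted log2 fold change was -3.44 with a standard error of 0.22, and for the steepest fall it was -8.44 with a standard error of 0.49.

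Replicates within a group differed more in MRW than in control, in proportion to the level. The coefficient of variation had a median of 7.80% over the control libraries and 23.7% over the MRW libraries, and it was larger in MRW in 96 of the 104 transcripts (92.3%). Over the 11539 transcripts of at least 5 CPM in control the medians were 9.72% and 6.87%, and it was larger in MRW in 34.8%. The 237 transcripts with 4- to 8-fold falls resembled the 104, at 8.33% and 18.0%, with a larger value in MRW in 81.0%. For the 104, counting alone would give medians of 3.73% in control and 13.2% in MRW. In the 31 transcripts with at least 300 MRW counts in all, the medians were 6.89% in control and 17.5% in MRW, where counting alone would give 7.49%. In 27 of these 31 the MRW libraries varied more. This limit of 300 counts was chosen after the values were seen.

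The control coefficient of variation was under 10% in 74 of the 104 transcripts (71.2%) and over 20% in 9 (8.65%). Over the 11539 transcripts the shares were 51.7% and 12.0%, and over the 237 transcripts with 4- to 8-fold falls they were 62.4% and 7.17%. The least steady was a sequence of 1311 bases with 7.42, 8.36 and 19.9 CPM in control and 0.677, 0 and 0 CPM in MRW. Control replicate 3 was the highest control library for 52 of the 104, control replicate 1 for 30 and control replicate 2 for 22. For the 11539 transcripts of at least 5 CPM the order was different, with control replicate 2 highest in 6719. Among the 237 with 4- to 8-fold falls, control replicate 3 was also the most often highest, in 113, with control replicate 2 in 89. These orders of the control libraries are in CPM, without TMM scaling. In CPM the 11539 transcripts had medians of 97.7%, 106% and 96.7% of the control mean in control replicates 1, 2 and 3.

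The spread among MRW libraries followed a common order. MRW replicate 1 was the highest MRW library for 70 of the 104 transcripts, MRW replicate 2 for 20 and MRW replicate 3 for 14, and the numbers were the same with TMM-scaled libraries. MRW replicate 3 was the lowest for 59. As a median over the 104, the level was 9.50%, 8.09% and 7.18% of the control mean in MRW replicates 1, 2 and 3. The deposited FPKM gave 9.35%, 8.08% and 7.13%. Across the 11539 transcripts of at least 5 CPM, the same libraries stood at medians of 106%, 106% and 106% of the control mean, and MRW replicate 1 was the highest in 40.3%.

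In the 31 transcripts with the most residual counts, MRW replicate 1 was the highest for 26 and MRW replicate 3 the lowest for 19. Their residual level ran from 4.07% to 16.9% of the control mean in MRW replicate 1, with a median of 11.5%. It ran from 4.09% to 11.8% in MRW replicate 2, with a median of 9.52%, and from 2.39% to 11.9% in MRW replicate 3, with a median of 8.77%. The ranges overlapped, and no transcript of the 31 kept more than 16.9% in any MRW library. The rule's ratio of at most 0.125 limits the mean residual, and the 31 were picked for many MRW counts. Both choices shape these levels. The 237 transcripts with 4- to 8-fold falls had the same order, at medians of 20.7%, 17.3% and 16.1%, and MRW replicate 1 was the highest for 185 of them. Whether culture, extraction or sequencing of MRW replicate 1 differed is not stated in the labels, and the part of such differences in the result was not tested.

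**Figure D3:**
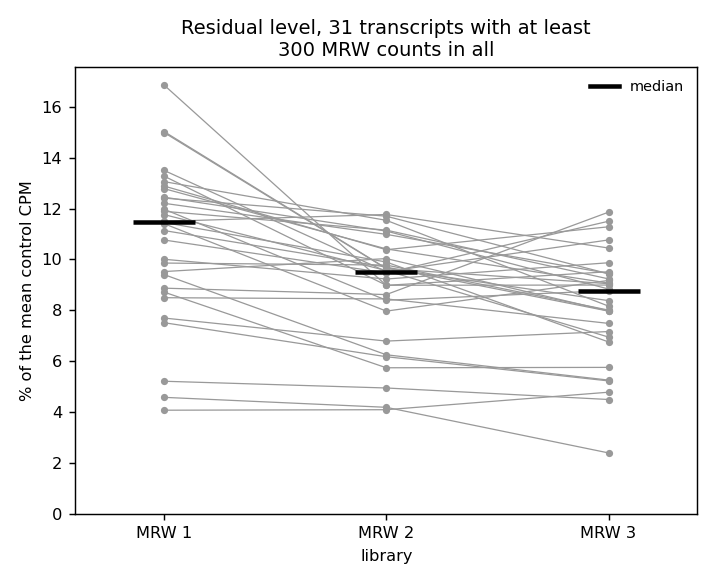
Residual level in each MRW library, as a percentage of the mean control CPM, for the 31 transcripts with at least 300 MRW counts in all. Each line is 1 transcript and black bars are medians, at 11.5%, 9.52% and 8.77% in MRW replicates 1, 2 and 3.

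Transcripts with more control reads kept more MRW reads. Across the 104 transcripts the Spearman correlation of mean control with mean MRW CPM was 0.87, which the upper limit on their ratio in part imposes. All points share the same 6 libraries, and neither axis is scaled to transcript length. The size of the fall had a correlation of -0.07 with control CPM. By control reads, the median fall was 13.9-fold in the 9 transcripts of 5 to 10 CPM, 11.8-fold in the 64 of over 10 to 50 CPM and 10.6-fold in the 31 of over 50 CPM.

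The deepest falls were found almost wholly among transcripts whose estimated counts carried decimals. Decimals can arise where a program divides reads among similar sequences, such as isoforms of a gene. Counts were whole in all 6 libraries (within 0.005) for 33 of the 104 transcripts, or 31.7%, against 53.7% of the 11539 transcripts of at least 5 CPM. The 33 fell by a median of 10.7-fold and at most 16.5-fold. The 71 with decimals fell by a median of 12.1-fold and up to 247-fold. Of the 25 falls over 16-fold, 23 carried decimals, and no whole count stood beside a fall over 32-fold.

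In the wider set of falls without overlap, whole counts made up 53.0% of the 2- to 2.83-fold falls and 51.7% of the 2.83- to 4-fold falls. Their share was 43.9% of the 4- to 5.66-fold falls and 35.7% of the 5.66- to 8-fold falls, and just above the limit it was 36.5% of the 8- to 11.3-fold falls. They made up 44.4% of the 11.3- to 16-fold falls and 12.5% of the 16- to 32-fold falls. All 31 transcripts with falls of 32-fold and over had decimals, and 22 of these 31 were the ones left out for having at most 3 MRW counts. How reads were divided between similar sequences in each library is not stated in the labels, and its part in the deepest falls was not tested.

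**Figure D4:**
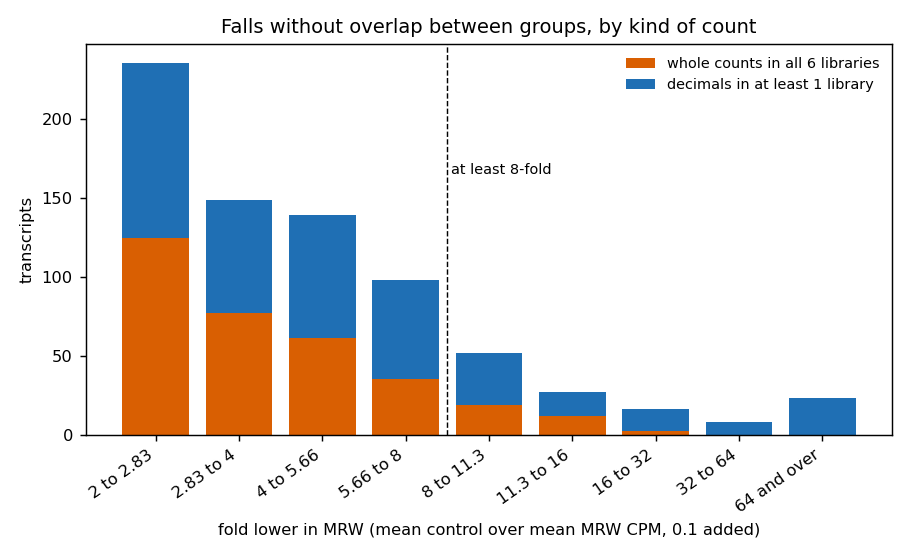
Number of transcripts of at least 5 CPM in control whose MRW values lay wholly below the control values, by size of fall, split into whole counts in all 6 libraries (orange) and counts with decimals (blue). Right of the dashed line are falls of at least 8-fold, and the bars of 32-fold and over hold 0 transcripts with whole counts.

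Among the transcripts with whole counts, the one with the most control reads was 561 bases long and built from 3 full-length reads. Its counts were 1756, 1437 and 2299 in control and 146, 114 and 147 in MRW. That was 76.8, 68.5 and 82.0 CPM against 5.83, 5.15 and 5.43 CPM, a 13.6-fold fall with little spread in either group. The steepest whole-count fall, in a sequence of 777 bases, was from 363, 342 and 472 counts to 27, 21 and 18, or 16.5-fold. In the whole-count transcripts the median residual was 10.2%, 8.57% and 7.75% of the control mean in MRW replicates 1, 2 and 3, and MRW replicate 1 was the highest in 23 of 33. The order of the MRW libraries was the same in the transcripts with decimals, at 9.38%, 7.29% and 6.34%.

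The rule did not use length, though its limit on MRW counts left out 22 longer transcripts, with a median of 1977.5 bases. The 104 transcripts had a median length of 970.5 bases and a range of 404 to 5740, and the 11539 transcripts of at least 5 CPM in control had a median of 1486 bases. Sequences of up to 1000 bases made up 56 of the 104 (53.8%) and 29.3% of the 11539. Those of over 1000 to 2000 bases made up 33 and those over 2000 bases 15. Put the other way, the chosen transcripts were 1.66% of the shortest class, 0.713% of the middle class and 0.424% of the longest class. No test was made of this difference, since transcripts are not replicates.

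Libraries also differed in a length trend over all transcripts of at least 5 CPM. As a median log2 difference between sequences over 2000 bases and those of up to 1000 bases, it came to -0.22, 0.14 and -0.37 for control replicates 1, 2 and 3. For the MRW libraries it came to 0.15, 0.17 and 0.13. The limit of the choice, an 8-fold fall, is 3 on the same scale. Most of the chosen transcripts lay close to that limit. The part of the library differences in length trend in the lengths of the chosen transcripts was not tested.

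Longer members of the 104 had fallen further. The median fall was 10.7-fold up to 1000 bases, 12.4-fold over 1000 to 2000 bases and 14.1-fold over 2000 bases, and the correlation of length with size of fall was 0.32 (Spearman, 104 transcripts of the same libraries). Whole counts were also less common in the longer ones, at 44.6%, 18.2% and 13.3% of the 3 classes, so length and decimals in the counts moved together among the 104. Among all 11539 transcripts the share of whole counts was 50.5%, 58.2% and 50.8% in those classes.

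The neighbouring sets differed in length in opposite ways. The 237 transcripts with 4- to 8-fold falls had a median of 1000 bases, close to the 104. The 22 with at most 3 MRW counts had a median of 1977.5 bases, and 11 of them were over 2000 bases. These 22 had fewer control reads, at a median of 10.7 CPM against 30.2 CPM in the 104 and 44.2 CPM in the 237. Per length their control medians were 7.38, 45.5 and 71.5 FPKM in the same order. These comparisons between sets are descriptions without a test.

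**Figure D5:**
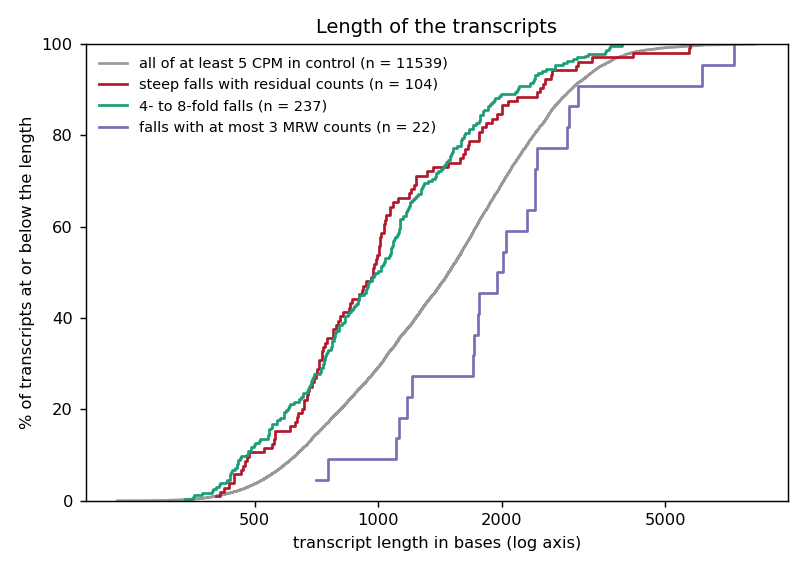
Share of transcripts at or below each length (log axis) for the 104 chosen transcripts, the 237 with 4- to 8-fold falls, the 22 with at most 3 MRW counts, and all 11539 transcripts of at least 5 CPM in control. The medians are 970.5, 1000, 1977.5 and 1486 bases.

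The number of full-length reads in the identifiers was another property the rule did not use. It was 2, the lowest number in the set, for 56 of the 104 (53.8%), and for 37.8% of the 11539. The share was 43.0% in the 237 transcripts with 4- to 8-fold falls and 59.1% in the 22 with at most 3 MRW counts. Among the 104 the number was 3 to 10 for 42 and over 10 for 6. The most full-length reads were 81, in a sequence of 800 bases with 28.1, 25.6 and 25.5 CPM in control. In MRW replicates 1, 2 and 3 this transcript had 2, 16 and 9 counts, a fall of 55.8-fold with an uneven residual. The next, with 51 full-length reads and 1189 bases, had 662, 596 and 685 counts in control and 31, 35 and 39 in MRW, an even 18.1-fold fall. The 6 transcripts with over 10 full-length reads had a median fall of 20.5-fold, and 0 of them had whole counts. The labels do not say from which scales the full-length reads came.

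The shortest of the 104 was a sequence of 404 bases, with 30.4, 27.1 and 31.2 CPM in control and 1.95, 2.15 and 1.94 CPM in MRW. Its 3 values in each group lay close together, with a fall of 14.0-fold. The identifiers mark 103 of the 104 as HQ and 1 as LQ, a label of consensus quality in such data. The LQ sequence, of 670 bases, had 18.6, 17.0 and 16.6 CPM in control and 2.11, 1.78 and 1.11 CPM in MRW, a 9.91-fold fall.

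The choice was repeated with each library left out in turn, which leaves that library's value unused. Without MRW replicate 1, 122 transcripts were chosen on the other 5 libraries, 101 of them among the 104. In MRW replicate 1 itself, 121 of the 122 lay below every control value, 120 reached a 4-fold fall from the control mean and 79 an 8-fold fall, with a median of 8.98-fold. Without MRW replicate 2, 106 were chosen, and in that library all 106 lay below every control value and 96 were at least 8-fold lower (median 11.7-fold). Without MRW replicate 3, 100 were chosen, all 100 lay below control in it, and 93 were at least 8-fold lower (median 13.3-fold).

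The left-out control libraries gave 105, 108 and 102 transcripts for control replicates 1, 2 and 3. The unused library lay above every MRW value for 105, 106 and 101 of them, and was at least 8 times the MRW mean for 97, 96 and 98. The exceptions were 2 transcripts in control replicate 2 and 1 in control replicate 3. The unused library lay on the side of its own group for nearly all transcripts chosen without it. An 8-fold difference was reached by fewer, and least often in MRW replicate 1, by 79 of 122. The opposing group's values in each case were among those that made the choice, so part of this is built in. No share over all transcripts stands beside these counts, and they are given as a description only. The median fall was smallest where MRW replicate 1 was the unused library.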

How the data were processed

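Per the labels, total RNA of lily scales was sequenced from standard Illumina libraries. The submitters' processing notes name Subread, without role or version. The design text names the soybean genome, while the rows are lily transcript identifiers, so the alignment target is uncertain. The counting program, its settings and its use of strand are not stated. The deposited estimated counts are not normalized (56.0% to 57.8% of values per library whole within 0.005), and FPKM was deposited by the authors.

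The members, classes and lists were chosen with earlier results of these data known. CPM here is the estimated count over the column total. Counts were rounded, filtered with filterByExpr (minimum count 10, minimum total 15; 13331 kept, 809 removed, all 104 members kept), scaled by TMM and tested with edgeR 4.0.16 in R 4.3.3, treatment as the only term, Benjamini-Hochberg threshold 0.05. Its standard errors are the log2 fold change over the root of F. The test was checked on simulated whole counts with edgeR's own fitted spread, which cannot show how it handles reads divided among similar sequences. DESeq2 1.42.0, limma-voom (limma 3.58.1) and other settings were alternatives. Libraries numbered alike had correlations of -0.068 to -0.014 in their deviations and were not paired. With no gene names, identifiers are given for 2 members only: the most control reads and the steepest fall. Others appear by rank, and the 1946-base transcript, the highest control variation and the second in full-length reads or FPKM were chosen after their values were seen. Intervals cover counting error only.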

Additional observations from a re-analysis of the deposited data

How the results depend on the processing

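Under the rule 104 transcripts were chosen. The number was 65 with 1 CPM added to both means, 25 with a 16-fold limit, 341 with a 4-fold limit and, as an alternative added after seeing the data, 33 with whole counts alone; the last 3 follow from a narrower or wider rule, and all 104 were among the 341. It was 108 with FPKM, 116 with TMM-scaled CPM, and 100 to 122 with each library left out. The rule picked the 104 on this same contrast, so the numbers called in each fit are a description and nothing is read from them. All 104 stayed lower at an adjusted p under 0.05 under each edgeR scaling and filter and with limma-voom. With DESeq2 102 did, and the adjusted p of the other 2 was 0.0925 and, for the 1946-base transcript, 0.126. With each library left out 103 to 104 did, and whole counts alone tested 33 and called 33. With the replicate block, a pairing the correlations do not bear out (0 of 6 libraries correlated best with its own number), 104 were lower and the median log2 fold change was -3.70. That median lay between -3.73 and -3.57 in all fits. Few MRW counts limit the deepest falls.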
